A study of Mus musculus with 8 samples.

Results

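The genes described here are 40 genes of oxidative stress defence that center on the transcription factor NRF2. They were chosen as a list of symbols by a rule that uses no measured value, though with earlier results of these data known, and make up 40 of the 15090 named genes tested on the arrays. All 40 had a probe that was well above background in the sample channel on every one of the 8 arrays. In a limma test adjusted over all probes, 0 of the 40 passed an adjusted p of 0.05, which 0.0199% of all tested genes passed, and the lowest adjusted p of a member was 0.454. The classical NRF2 targets *Hmox1*, *Gclc*, *Gclm*, *Srxn1*, *Txnrd1* and *Osgin1* had log2 fold changes between -0.060 and 0.068, and *Slc7a11* had -0.22. The NRF2 target *Prdx1* had 0.31 by its brightest probe and 0.070 by a dimmer one. *Nqo1*, a marker of NRF2 activity outside the 40 genes, had 0.41. The largest differences were in *Gpx8*, *Txnip*, *Sod3*, *Prdx1* and *Nfe2l2*, all with higher means in BaP-exposed mice.

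Adult male Muta Mouse animals, a transgenic strain used for mutation assays, received either olive oil alone (Control, 4 arrays) or 70 mg benzo[*a*]pyrene (BaP) per kg body weight (BaP, 4 arrays). Both groups were gavaged daily on 3 days, and the hippocampus was taken 24 hr after the last dose. Per the labels each group held 5 animals, of which 4 are on the arrays. Each array, all 8 on 1 slide, held the RNA of 1 mouse in Cy5 and a universal mouse reference RNA in Cy3, with no dye swap. Values below are log2 ratios of the mouse to that reference, and a log2 fold change is the mean of the BaP-exposed mice minus the mean of the control mice. The median Cy5 signal of an array was 108 to 174 over a median background of 67 to 71. All 10 listed markers of hippocampal neurons were measured well above background. The RNA came from the tissue as a whole, so fewer cells of a type and less RNA per cell cannot be told apart.

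For 4 arrays, which make up the lower row of the slide, the sample title assigns the mouse to a group and the source name to the opposite one. Groups follow the titles here, with which the mouse numbers also run. By title, the mean of 9 erythroid marker genes on these 4 arrays was 0.35 in both control mice and -0.31 and -0.20 in the BaP-exposed mice. On the other 4 arrays it was 0.36 and 0.26 against -0.38 and -0.42, so this list separated the titled groups in the same direction in both rows. The list was chosen with earlier results of these data known, so it is not an independent check of the labels. Values from the 4 arrays without this conflict, and values with the groups taken from the source names, stand beside the larger differences described with each mouse's value, and the marker lists are given by the titles alone. Cell types other than neurons were followed through marker lists.

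NRF2, encoded by *Nfe2l2*, is held in the cytoplasm by KEAP1, which presents it for degradation. Oxidants and reactive chemicals modify cysteines of KEAP1, NRF2 then enters the nucleus and, with a small MAF partner, binds antioxidant response elements (AREs) in front of genes for glutathione synthesis, thioredoxin reduction, NADPH supply, heme breakdown and iron storage. BaP is metabolized to epoxides and redox-active quinones, and in the brain the antioxidant genes are used strongly by astrocytes, choroid plexus and endothelium as well as by neurons.

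To show what such an element looks like in these genes, the RefSeq promoter windows of the mouse assembly GRCm38.p6 were searched. A window runs from 250 bases before a start site to 50 after it. The search letters for the ARE were TGACNNNGC on either strand. Of the 40 genes, 35 had a window, while *Gclc*, *Gsr*, *Hmox1*, *Prdx6* and *Sod3* had none in the table used. An ARE match was present in 19.1% of the 47 windows of these 35 genes and in 12.4% of all 32851 windows. The 9 matches are given with 10 bases on each side, turned so that each reads in the same direction, with the match in capitals.

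G6pdx: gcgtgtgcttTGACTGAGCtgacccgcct

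Gclm: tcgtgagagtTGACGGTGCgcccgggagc

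Me1: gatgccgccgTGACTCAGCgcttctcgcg

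Nfe2l2: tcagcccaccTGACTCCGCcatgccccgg

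Pgd: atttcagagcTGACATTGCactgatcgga

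Prdx1: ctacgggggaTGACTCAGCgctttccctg

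Sod1: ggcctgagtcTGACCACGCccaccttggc

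Srxn1: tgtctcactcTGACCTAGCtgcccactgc

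Txnrd1: cgtgtcagaaTGACAAAGCaaaaatccag

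The matches of *Me1* and *Prdx1* have the same 9 letters, TGACTCAGC, and differ in their flanks. The stretches lie at chrX:74428919-74428947 (*G6pdx*, plus strand), chr3:122245413-122245441 (*Gclm*), chr9:86695902-86695930 (*Me1*), chr2:75704885-75704913 (*Nfe2l2*), chr4:149166061-149166089 (*Pgd*), chr4:116685456-116685484 (*Prdx1*), chr16:90220696-90220724 (*Sod1*), chr2:152105542-152105570 (*Srxn1*) and chr10:82859104-82859132 (*Txnrd1*), all but the first read on the minus strand. The 9 genes with a match had log2 fold changes from -0.10 to 0.31 with a median of 0.068. The 26 genes with a window and no match ranged from -0.26 to 0.60 with a median of 0.028. The core of the xenobiotic response element, GCGTG on either strand, which the BaP-binding receptor AHR uses, was in 57.4% of the members' windows and in 32.4% of all windows. The members' windows were also richer in G and C, with a median of 60.7% against 52.7%. A match is a run of letters and does not show that a factor binds there.

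Over the 40 genes, 23 log2 fold changes were above 0 and 17 below. Among all tested genes 50.5% were above 0. At an unadjusted limma p of 0.05, 3 members passed (*Txnip*, *Prdx1* and *Prdx3*), all higher in BaP-exposed mice, or 3 of 40 where 9.47% of all tested genes passed in either direction and 5.22% upward. The groups did not overlap for 1 member, *Txnip*, where this held for 5.37% of all tested genes. A fold change of at least 1.5 was reached by 1 member, *Gpx8*, against 1.42% of all tested genes. The median absolute log2 fold change was 0.063 over the members and 0.098 over all tested genes, and the median log2 fold change was 0.031 over the members and 0.0015 over all tested genes. With median centring in place of loess, the median of all tested genes itself moved to 0.21, and 34 of the 40 members then lay above that median, in place of 23 in the loess values.

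The mice entered these counts unequally. Without control mouse 1 the number of members past an unadjusted p of 0.05 was 5, and without BaP mouse 1 it was 6, while the share of all tested genes rose from 9.47% to 10.3% and 12.2%. Without control mouse 2, BaP mouse 2 or BaP mouse 3 it was 1 in each case, with 7.15%, 5.37% and 6.04% of all tested genes. The number past the adjusted p of 0.05 was 0 under all 26 alternative settings. The closing section names those that could not, or could hardly, have changed it. The 95% interval of the log2 fold change lay inside a 1.5-fold change in either direction for 34 of the 40 members. The other 6 were *Nfe2l2*, *Ftl1*, *Txnip*, *Sod3*, *Gpx8* and *Prdx1*. These intervals are per gene and are not adjusted for the number of genes.

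**Figure D1:**
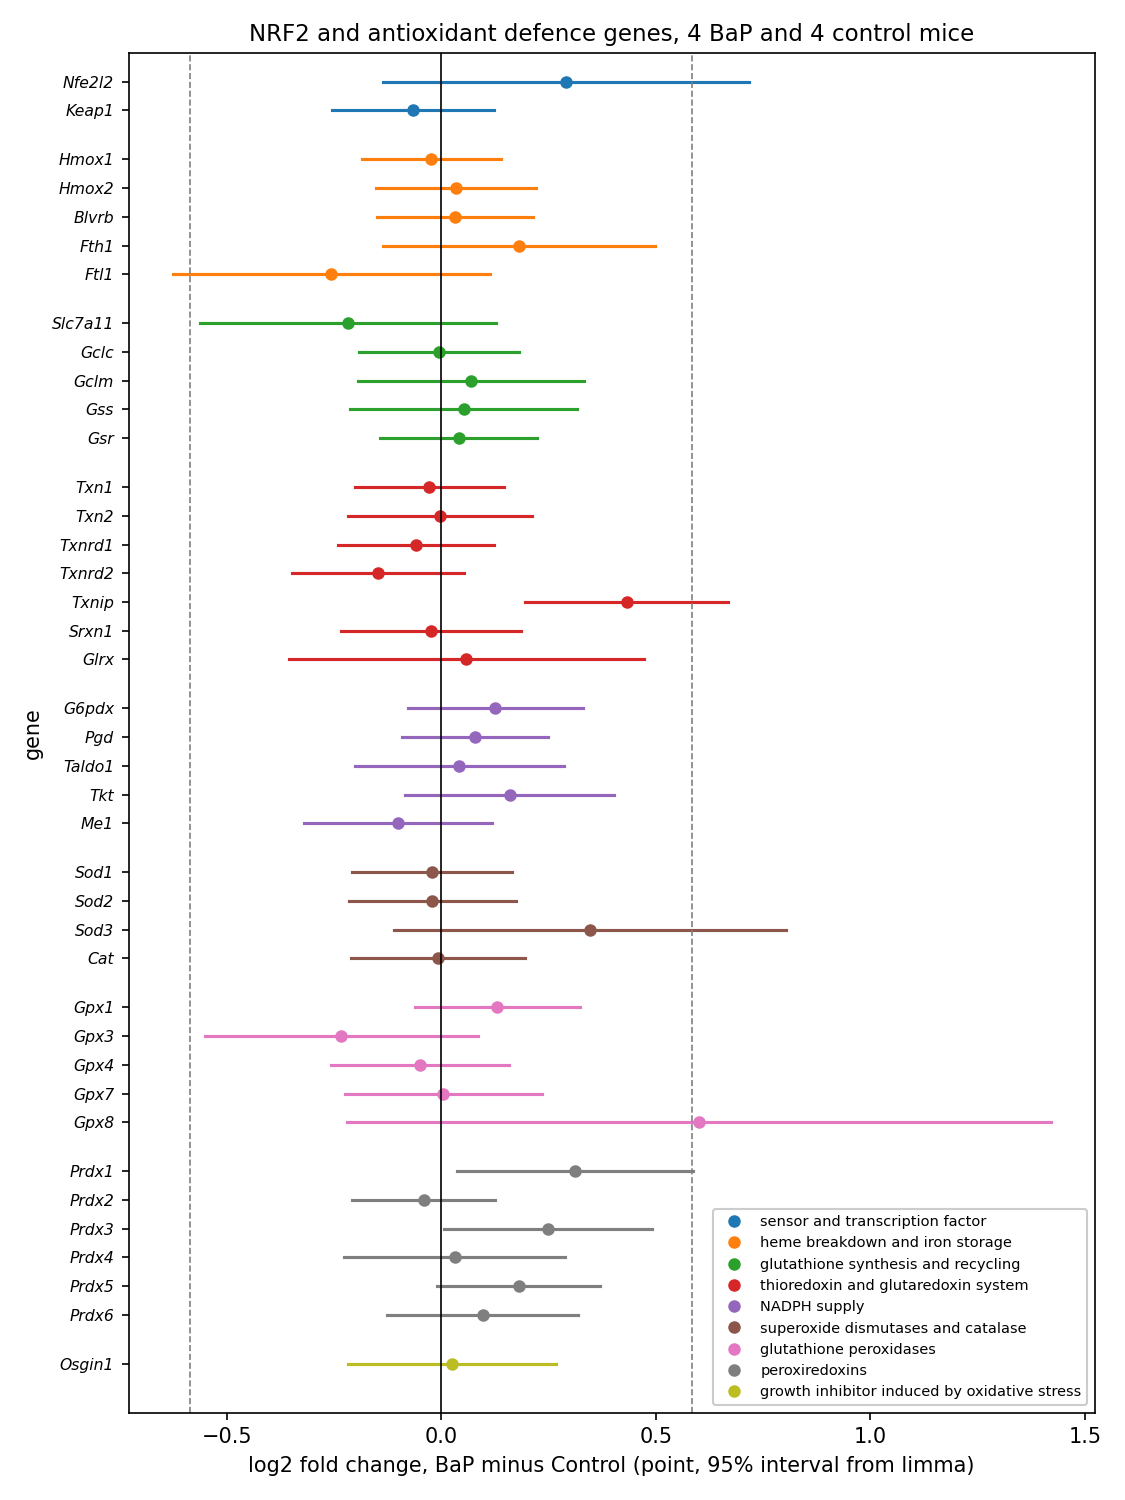
Log2 fold change of BaP-exposed against control mice for the 40 genes, by role (color), on the horizontal axis, with points for the estimate and lines for the 95% interval from limma (4 mice a group). Dashed lines mark a 1.5-fold change in either direction, and 34 of the 40 intervals lie between them, while *Gpx8* has the widest.

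Among the sensor and the factor, the *Nfe2l2* log2 ratio was -2.19, -2.77, -2.45 and -2.65 in control mice 1 to 4 and -2.75, -1.85, -2.02 and -2.27 in BaP mice 1 to 4. BaP mice 2 and 3 were above every control mouse, while BaP mouse 1 was near the lowest control. The log2 fold change was 0.29 (standard error [SE] 0.19, limma adjusted p of 0.671), with an exact 2-sided permutation p of 0.257. It was 0.18 on the 4 arrays without a label conflict, 0.40 on the other 4 and -0.11 with the groups by source name. With 1 mouse left out it ran from 0.17 without BaP mouse 2 to 0.47 without BaP mouse 1, where the unadjusted limma p was 0.0133 and the adjusted p 0.363. *Keap1*, the sensor that targets NRF2 for degradation, had log2 ratios of 0.69, 0.51, 0.80 and 0.70 in control mice 1 to 4 and of 0.64, 0.62, 0.53 and 0.65 in BaP mice 1 to 4. The BaP-exposed mice lay within the range of the control mice, and the log2 fold change was -0.066 (SE 0.085, limma adjusted p of 0.843). It was 0.030 on the 4 arrays without a label conflict, -0.16 on the other 4 and 0.096 with the groups by source name, so its direction depended on the arrays used.

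*Hmox1*, the inducible heme oxygenase and a standard readout of NRF2 activity, had the smallest standard error of the 40 genes. Its log2 ratio was -3.12, -3.18, -3.16 and -3.23 in control mice 1 to 4 and -3.18, -3.12, -3.25 and -3.23 in BaP mice 1 to 4. The groups overlapped almost fully, and the log2 fold change was -0.023 (SE 0.073, limma adjusted p of 0.946) with a 95% interval from -0.19 to 0.14. The constitutive heme oxygenase *Hmox2* and the biliverdin reductase *Blvrb* had log2 fold changes of 0.033 and 0.031. The ferritin heavy chain *Fth1*, at 0.18, and the light chain *Ftl1*, at -0.26, had standard errors of 0.14 and 0.17. On the 4 arrays without a label conflict *Fth1* was at 0.0064 and *Ftl1* at -0.62, on the other 4 both were above 0, at 0.36 and 0.11, and with the groups by source name both were below 0, at -0.17 and -0.37. The dimmer of the *Ftl1* probes gave 0.051, so the direction of *Ftl1* differed between its probes. Heme and iron genes are also used by red blood cells, and 8 of 9 tested erythroid marker genes were lower in BaP-exposed mice, with list means of 0.26 to 0.36 in control mice and -0.42 to -0.20 in BaP-exposed mice. Of the members that red cells hold in quantity, *Blvrb*, *Prdx2*, *Cat* and *Gpx1* had log2 fold changes of 0.031, -0.041, -0.0077 and 0.13.

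In glutathione synthesis, *Slc7a11*, the cystine importer, had log2 ratios of 1.45, 1.13, 1.39 and 0.80 in control mice 1 to 4 and of 0.69, 1.11, 1.15 and 0.94 in BaP mice 1 to 4. Control mice 1 and 3 were above every BaP-exposed mouse and control mouse 4 was near the lowest. The log2 fold change was -0.22 (SE 0.16, limma adjusted p of 0.692), and it was -0.39 on the 4 arrays without a label conflict, -0.049 on the others and -0.17 with the groups by source name. With 1 mouse left out it ran from -0.35 without control mouse 4, where the unadjusted limma p was 0.0277 and the adjusted p 0.686, to -0.12 without BaP mouse 1. *Gclc* and *Gclm* encode the catalytic and modifier subunits of the rate-limiting ligase. *Gclc* stood at 0.073, 0.00040, 0.010 and -0.060 in control mice 1 to 4 and at 0.12, -0.065, 0.079 and -0.13 in BaP mice 1 to 4, and the control range lay inside the BaP range. *Gclm* stood at -0.37, -0.56, -0.14 and -0.21 in control mice 1 to 4 and at -0.0051, -0.29, -0.38 and -0.33 in BaP mice 1 to 4, with only BaP mouse 1 outside the control range. Their log2 fold changes were -0.0053 (SE 0.084, limma adjusted p of 0.991) and 0.068 (SE 0.12, limma adjusted p of 0.886). *Gss*, which adds glycine, and *Gsr*, which reduces oxidized glutathione, had log2 fold changes of 0.052 and 0.040.

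The thioredoxin group held the member with the smallest p-value. *Txnip* encodes an arrestin-like protein that binds and inhibits thioredoxin and limits glucose uptake. Its log2 ratio was -2.94, -3.15, -2.71 and -3.01 in control mice 1 to 4 and -2.67, -2.54, -2.40 and -2.48 in BaP mice 1 to 4. Every BaP-exposed mouse was above every control mouse, though BaP mouse 1 and control mouse 3 were close. The log2 fold change was 0.43 (SE 0.11, limma adjusted p of 0.454), and the exact 2-sided permutation p was 0.0286, the smallest that 4 mice against 4 can give. It was 0.44 on the 4 arrays without a label conflict and 0.42 on the other 4, ranged from 0.37 to 0.51 when each mouse was left out, and was 0.0082 with the groups by source name. A second, dimmer *Txnip* probe gave 0.16 (SE 0.091, limma adjusted p of 0.623) with overlapping groups.

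*Txnip* transcription is known to respond to glucose through paired E-boxes near its start site and to glucocorticoids. The E-box letters CACGNG on either strand were found 4 times in its window. Any match was present in 27.5% of all windows, and the share with as many matches was not computed. The 200 bases before the start site, at chr3:96557757-96557956 on the plus strand, are shown with these matches in capitals, because the pair CACGAG and CACGAG, 5 bases apart, is in them. The outer matches also contain the GCGTG core or its complement.

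Txnip: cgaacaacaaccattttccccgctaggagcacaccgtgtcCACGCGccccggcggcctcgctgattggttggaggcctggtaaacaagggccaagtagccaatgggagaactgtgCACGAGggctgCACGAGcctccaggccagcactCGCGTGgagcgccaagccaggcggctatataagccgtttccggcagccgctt

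A glucocorticoid target list was chosen with earlier results of these data known. All 12 of its tested genes had higher means in BaP-exposed mice, where 50.5% of all tested genes did. At an unadjusted limma p of 0.05 or less were 7 of them, against 5.22% of all tested genes upward. Of the 12, 0 passed an adjusted p of 0.05. The list mean was -0.38 to -0.11 in control mice and 0.064 to 0.33 in BaP-exposed mice. The *Txnip* values and this list thus separated the groups in the same direction, and its part in the *Txnip* difference was not tested.

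None of the other thioredoxin and glutaredoxin genes passed an unadjusted p of 0.05. *Txnrd1*, the cytosolic thioredoxin reductase, stood at -1.17, -1.20, -1.24 and -1.22 in control mice 1 to 4 and at -1.39, -1.23, -1.12 and -1.33 in BaP mice 1 to 4. The narrow control range lay inside that of the BaP-exposed mice, and the log2 fold change was -0.060 (SE 0.082, limma adjusted p of 0.849). *Srxn1*, the sulfiredoxin that repairs overoxidized peroxiredoxins, stood at 0.29, 0.35, 0.15 and 0.27 in control mice 1 to 4 and at 0.37, 0.37, 0.18 and 0.062 in BaP mice 1 to 4. The groups overlapped, with a log2 fold change of -0.024 (SE 0.094, limma adjusted p of 0.960). The thioredoxins *Txn1* (cytosolic) and *Txn2* (mitochondrial) had log2 fold changes of -0.029 and -0.0032, and the mitochondrial reductase *Txnrd2* had -0.15 with a standard error of 0.090. *Glrx*, glutaredoxin, was at 0.058 and varied widely among the BaP-exposed mice, from -1.51 in mouse 3 to -0.44 in mouse 4.

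For NADPH supply, the pentose phosphate genes *G6pdx*, *Pgd*, *Taldo1* and *Tkt* had log2 fold changes of 0.13, 0.079, 0.042 and 0.16, with standard errors of 0.076 to 0.11. The malic enzyme *Me1* had -0.10 by its brightest probe, while its other probes gave 0.052 and 0.076. None of the 5 passed an unadjusted p of 0.05.

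*Sod1*, *Sod2* and *Cat*, for the cytosolic and mitochondrial superoxide dismutases and catalase, had log2 fold changes of -0.022, -0.021 and -0.0077, each with a standard error of 0.084 to 0.091. The extracellular dismutase *Sod3* stood at 0.98, 0.56, 1.20 and 0.70 in control mice 1 to 4 and at 0.65, 1.64, 1.32 and 1.23 in BaP mice 1 to 4, so that BaP mice 2, 3 and 4 were above every control mouse and BaP mouse 1 was within the control range. Its log2 fold change was 0.35 (SE 0.21, limma adjusted p of 0.645), which was 0.37 on the 4 arrays without a label conflict, 0.32 on the other 4 and 0.025 with the groups by source name. With 1 mouse left out it ran from 0.20 without BaP mouse 2 to 0.53 without BaP mouse 1, where the unadjusted limma p was 0.00967 and the adjusted p 0.332. A dimmer *Cat* probe gave 0.21 with a standard error of 0.17.

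*Gpx8*, a glutathione peroxidase of the endoplasmic reticulum membrane, had the largest log2 fold change and the largest spread of the 40 genes. Its log2 ratio was -2.51, -3.09, -2.40 and -3.06 in control mice 1 to 4 and -3.38, -1.78, -1.37 and -2.13 in BaP mice 1 to 4. BaP mice 2, 3 and 4 were above every control mouse, and BaP mouse 1 was below every control mouse. The log2 fold change was 0.60 (SE 0.37, limma adjusted p of 0.650), with an exact 2-sided permutation p of 0.257. Without BaP mouse 1 it was 1.01, without BaP mouse 3 it was 0.34, and it was 0.22 on the 4 arrays without a label conflict and 0.98 on the other 4. Grouped by source name it was -0.38. *Gpx1*, *Gpx3*, *Gpx4* and *Gpx7* had log2 fold changes of 0.13, -0.23, -0.050 and 0.0046. That of *Gpx3* was -0.10 on the 4 arrays without a label conflict, -0.37 on the other 4 and 0.13 with the groups by source name.

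Of the 6 peroxiredoxins, 5 had log2 fold changes above 0. With median centring in place of loess all 6 were above the median of all tested genes, as were 34 of the 40 members. *Prdx1*, the main cytosolic peroxiredoxin and a known NRF2 target, stood at -1.29, -1.63, -1.43 and -1.66 in control mice 1 to 4 and at -1.496, -1.07, -1.06 and -1.15 in BaP mice 1 to 4. BaP mice 2, 3 and 4 were above every control mouse, and BaP mouse 1 was inside the control range. The log2 fold change was 0.31 (SE 0.12, limma adjusted p of 0.540), with an exact 2-sided permutation p of 0.0857. It was 0.18 on the 4 arrays without a label conflict, 0.44 on the other 4 and -0.13 with the groups by source name, and a dimmer probe gave 0.070 with a standard error of 0.10. The 200 bases before its start site, at chr4:116685399-116685598 on the plus strand, show the ARE match in capitals, which starts 133 bases before the start site and reads as the reverse complement of the letters given above.

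Prdx1: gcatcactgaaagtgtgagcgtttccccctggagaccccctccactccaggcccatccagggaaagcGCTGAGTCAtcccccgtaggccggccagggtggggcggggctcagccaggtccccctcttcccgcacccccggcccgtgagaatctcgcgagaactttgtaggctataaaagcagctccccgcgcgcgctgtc

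*Prdx3*, the mitochondrial peroxiredoxin, stood at -0.41, -0.65, -0.15 and -0.39 in control mice 1 to 4 and at -0.25, -0.030, -0.14 and -0.18 in BaP mice 1 to 4. Only control mouse 3 reached the range of the BaP-exposed mice, and the log2 fold change was 0.25 (SE 0.11, limma adjusted p of 0.569), with an exact 2-sided permutation p of 0.0857. It was 0.39 on the 4 arrays without a label conflict, 0.11 on the other 4 and 0.14 with the groups by source name. *Prdx2*, *Prdx4*, *Prdx5* and *Prdx6* had log2 fold changes of -0.041, 0.031, 0.18 and 0.096. *Prdx6* had 4 probes, all with values above 0, and its second brightest gave 0.16 with groups that did not overlap.

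*Osgin1*, a growth inhibitor that NRF2 induces under oxidative stress, stood at -3.31, -3.64, -3.32 and -3.55 in control mice 1 to 4 and at -3.62, -3.25, -3.45 and -3.41 in BaP mice 1 to 4. The groups overlapped, and the log2 fold change was 0.025 (SE 0.11, limma adjusted p of 0.964).

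**Figure D2:**
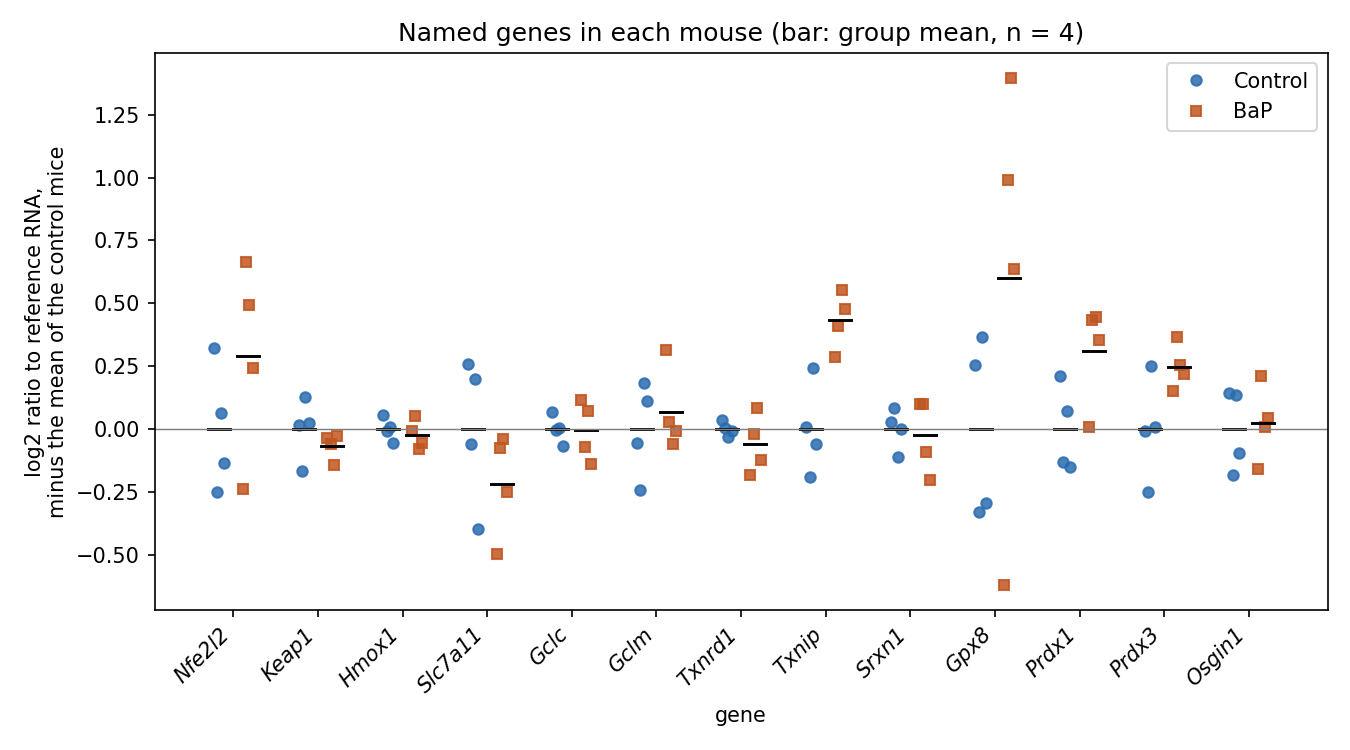
Log2 ratio to the reference RNA in each mouse for 13 of the genes, with the mean of the control mice subtracted. Circles are control mice, squares are BaP-exposed mice and bars are group means (n = 4). Only *Txnip* has groups without overlap, and *Gpx8* has the widest spread.

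*Gpx8*, the member with the largest difference, followed the markers of the choroid plexus from mouse to mouse. The choroid plexus is the secretory epithelium that lies against the hippocampus in the ventricle. The mean of 14 of its marker genes, each centered on its mean over the mice, was 0.10, -0.94, 0.50 and -1.35 in control mice 1 to 4 and -1.81, 1.22, 1.60 and 0.68 in BaP mice 1 to 4. All 14 markers had higher means in BaP-exposed mice, 12 of them by at least 1.5-fold, and 0 of the 14 passed an unadjusted limma p of 0.05. Among all tested genes 50.5% had a higher mean, 1.42% differed by at least 1.5-fold in either direction and 9.47% passed that p. The markers varied together over the mice, so these counts are not independent. BaP mouse 1 was the lowest of the 8 mice and BaP mice 2, 3 and 4 the highest. Other lists also had their lowest means in BaP mouse 1 and control mouse 4, where 10 meningeal fibroblast markers were at -0.74 and -0.71, against up to 0.66 in control mouse 3, and 8 endothelial markers at -0.091 and -0.23, against up to 0.14 in BaP mouse 3. The part of these cells in the members' differences was not tested.

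The relation of the log2 ratio to this mean over the 8 mice was computed for all 14875 genes with a value in every mouse, and p-values were adjusted over all of them. An unadjusted exact permutation p of 0.05 or less for Pearson's r was seen for 12 of the 40 members, 11 of them with r above 0. Of all these genes 12.6% had such a p, and 8.68% had it with r above 0. An adjusted p of 0.05 was passed by 1 member, *Gpx8*, by r and also by Spearman's rho, and by 1.06% and 0.834% of all these genes. For *Gpx8* r was 0.979 (exact permutation p = 5.0e-05, adjusted p = 0.0184) and rho was 0.976 (exact permutation p = 0.000397, adjusted p = 0.0476). For *Sod3* r was 0.914 (exact permutation p = 0.00255, adjusted p = 0.111) and rho was 0.905 (exact permutation p = 0.00456, adjusted p = 0.162). *Nfe2l2* had an r of 0.901 (exact permutation p = 0.00417, adjusted p = 0.148) and a rho of 0.833 (exact permutation p = 0.0154, adjusted p = 0.275). *Prdx1* had an r of 0.884 (exact permutation p = 0.00717, adjusted p = 0.186) and a rho of 0.905 (exact permutation p = 0.00456, adjusted p = 0.162). *Txnip* had an r of 0.671 (exact permutation p = 0.075, adjusted p = 0.464) and a rho of 0.714 (exact permutation p = 0.0576, adjusted p = 0.455). *Prdx3* had an r of 0.630 (exact permutation p = 0.0906, adjusted p = 0.493) and a rho of 0.738 (exact permutation p = 0.0458, adjusted p = 0.424).

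These pairings take no account of the groups. With both measures centered on their group's mean, and with pairings within groups only, r was 0.981 for *Gpx8* (exact permutation p = 0.00347), 0.906 for *Sod3* (exact permutation p = 0.0156), 0.886 for *Nfe2l2* (exact permutation p = 0.0191) and 0.936 for *Prdx1* (exact permutation p = 0.0139). It was 0.745 for *Txnip* (exact permutation p = 0.0156) and 0.558 for *Prdx3* (exact permutation p = 0.104). *Slc7a11* had an r of 0.858 within groups (exact permutation p = 0.00521) and of 0.559 over all mice (exact permutation p = 0.154, adjusted p = 0.574, with a rho of 0.452, exact permutation p = 0.267, adjusted p = 0.690). By this test 12 of the 40 members had an unadjusted p of 0.05 or less, where 10.4% of all these genes did. Leaving out BaP mouse 1 and control mouse 4, the 2 mice farthest from the median of the marker mean, leaves 6 mice in which the marker mean separates the groups, so that r over them includes any difference between the groups. It was 0.985 for *Gpx8*, 0.909 for *Sod3*, 0.870 for *Nfe2l2*, 0.918 for *Prdx1*, 0.942 for *Txnip*, 0.911 for *Prdx3* and -0.19 for *Slc7a11*.

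With the marker mean as a covariate, a setting chosen after the data were seen, the log2 fold change of *Gpx8* was 0.16 (SE 0.11, limma adjusted p of 0.804), that of *Sod3* 0.13, that of *Nfe2l2* 0.092 and that of *Prdx1* 0.19. *Txnip* was at 0.36 (SE 0.098, limma unadjusted p of 0.00484, adjusted p of 0.701). *Slc7a11* moved to -0.37 (standard error 0.11) and had an unadjusted p of 0.00813 and an adjusted p of 0.709 from limma in that fit, where 7.19% of all tested genes passed an unadjusted p of 0.05. *Hmox1* was at -0.027. The part of choroid plexus RNA in these differences was not tested beyond these values.

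**Figure D3:**
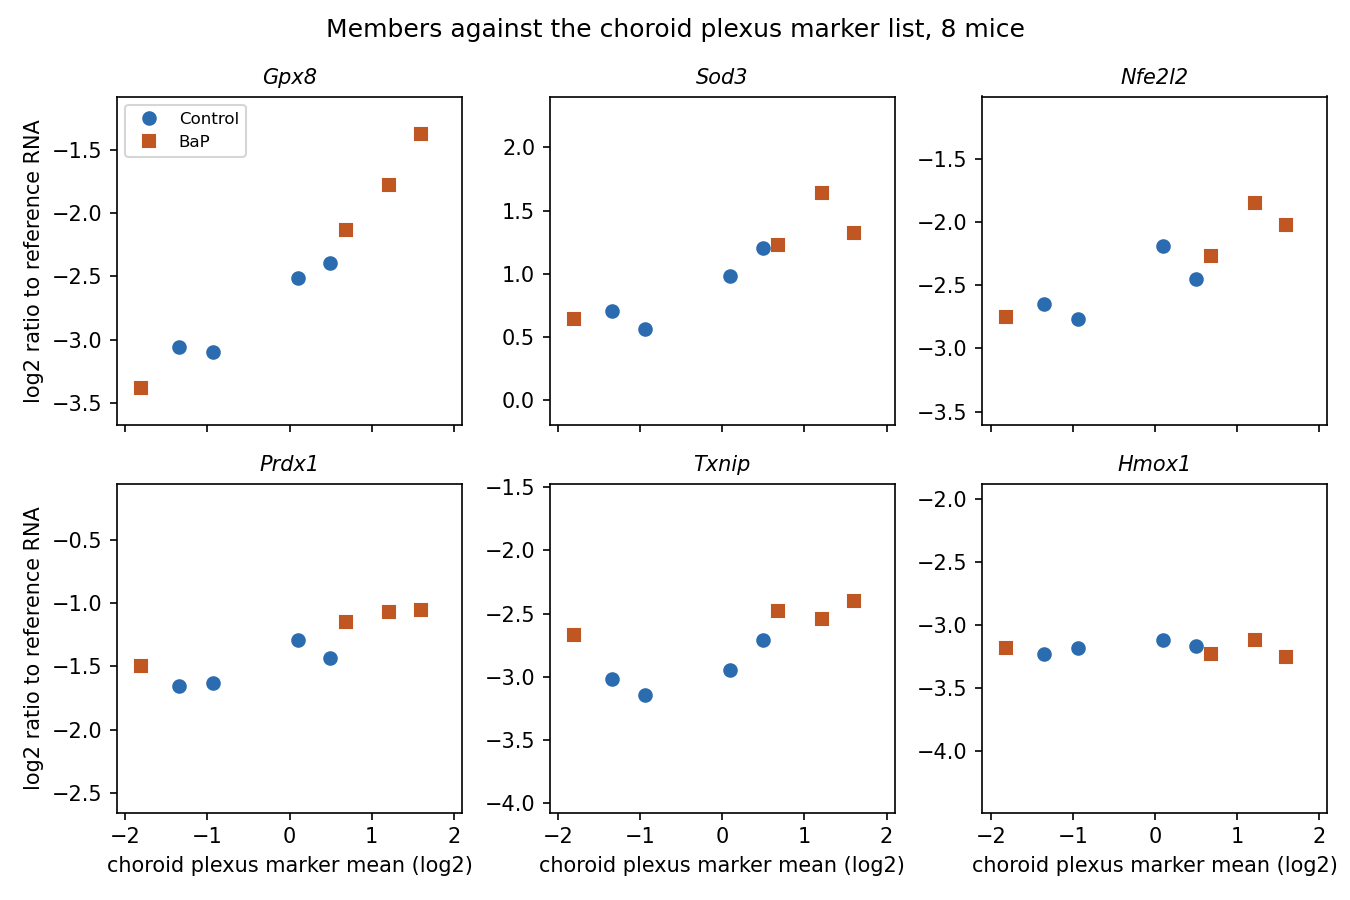
Log2 ratio to the reference RNA of 6 genes (vertical axes, equal in span) against the mean of 14 choroid plexus marker genes (horizontal axis, log2, centered) in the 8 mice, with control mice as circles and BaP-exposed mice as squares. *Gpx8* follows the marker mean closely (r = 0.979), while *Hmox1* is flat (r = -0.0041). For *Txnip* r is 0.671, and the groups do not overlap.

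Relative to the universal mouse reference RNA, 19 of the 40 genes had a mean log2 ratio above 0 in control mice and 21 below. The median was -0.32 where all tested genes had 0.12. Log2 ratios above 1 were seen for 6 members (*Gpx3*, *Prdx6*, *Fth1*, *Cat*, *Slc7a11* and *Gpx4*), and log2 ratios under -1 for 13. Of these 13, *Osgin1* (-3.46) and *Hmox1* (-3.17) were the lowest by their brightest probes. Of all tested genes, 25.7% had a log2 ratio above 1 and 18.9% a log2 ratio under -1. The level depended on the probe for some of these genes, since the other probes of *Prdx6* were at 0.59 to 0.64, the dimmer *Cat* probe at -0.25 and the dimmer *Hmox1* probe at -2.30. *Gpx3*, a secreted peroxidase, was at 1.61 ± 0.28 (SD, n = 4), and *Prdx6*, an astrocyte-rich peroxiredoxin, by its brightest probe at 1.52 ± 0.19 (SD, n = 4). Without a dye swap these ratios include any dye bias of a probe, which cancels in a fold change between the groups.

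**Figure D4:**
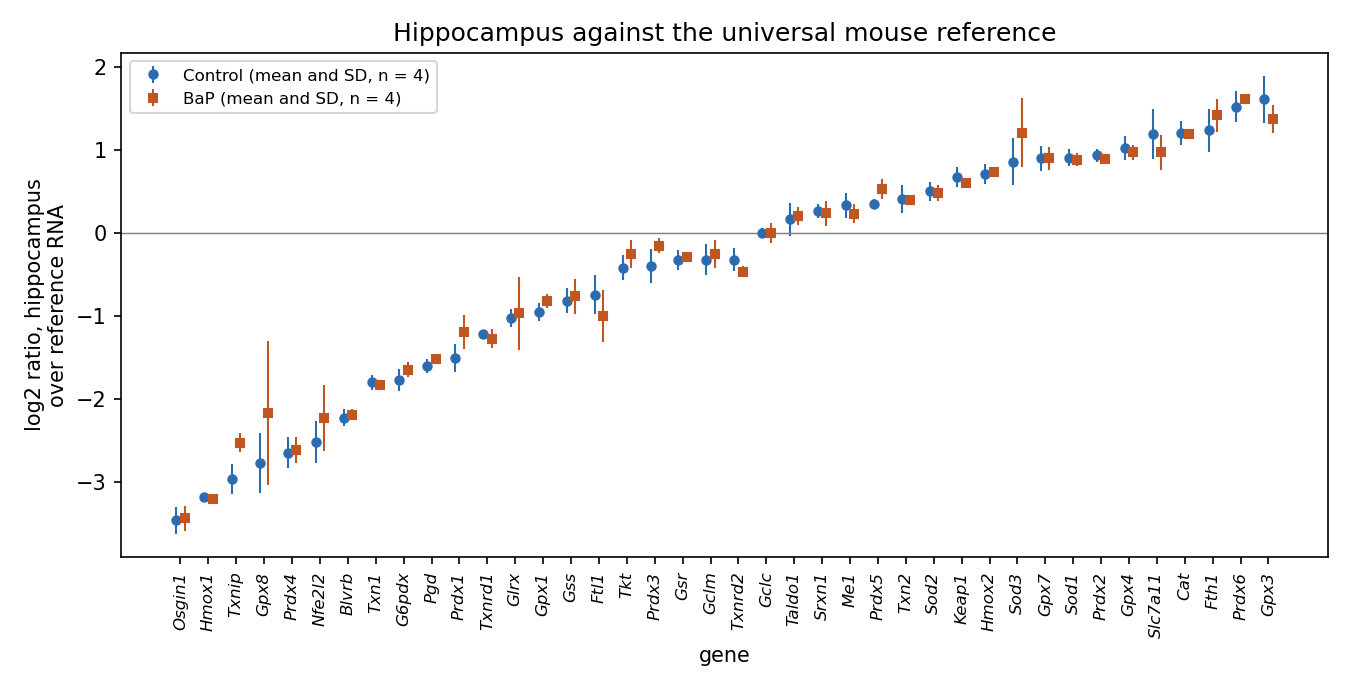
Mean and SD of the log2 ratio of hippocampus over the universal mouse reference for each of the 40 genes (vertical axis), ordered by the control mean, with control mice as circles and BaP-exposed mice as squares (n = 4 each). The control means run from -3.46 (*Osgin1*) to 1.61 (*Gpx3*).

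Outside the 40 genes, a list of 42 further NRF2 pathway genes gave 41 with a tested probe, since no probe was matched to *Nnt*. Their log2 fold changes were above 0 for 29 and below 0 for 12, with a median of 0.049 and a range from -0.18 to 0.46, and with median centring 31 of 41 were above the median of all tested genes. The adjusted p of 0.05 was passed by 0, and an unadjusted p of 0.05 by 4, all higher in BaP-exposed mice, or 4 of 41 where 9.47% of all tested genes passed in either direction. *Nqo1*, a quinone reductase and the most used marker of NRF2 activity, stood at -2.14, -2.48, -1.95 and -2.05 in control mice 1 to 4 and at -2.12, -1.64, -1.48 and -1.73 in BaP mice 1 to 4. BaP mice 2, 3 and 4 were above every control mouse and BaP mouse 1 was inside the control range, and the log2 fold change was 0.41 (SE 0.15, limma adjusted p of 0.528). It was 0.43 on the 4 arrays without a label conflict, 0.39 on the other 4, 0.018 with the groups by source name and 0.64 with the scanner's processed signals centered on the median.

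*Ephx1*, the microsomal epoxide hydrolase that acts on BaP epoxides, stood at -0.24, -0.65, -0.35 and -0.62 in control mice 1 to 4 and at -0.52, 0.18, 0.37 and -0.059 in BaP mice 1 to 4. Only BaP mouse 1 was inside the control range, and the log2 fold change was 0.46 (SE 0.18, limma adjusted p of 0.539). *Mafk*, a small MAF partner of NRF2, stood at -0.30, -0.21, -0.14 and -0.48 in control mice 1 to 4 and at -0.12, 0.066, 0.12 and -0.14 in BaP mice 1 to 4. BaP mouse 4 and control mouse 3 were level, and the log2 fold change was 0.26 (SE 0.10, limma adjusted p of 0.534). *Gstm5*, a glutathione transferase, stood at 2.89, 2.89, 3.14 and 3.09 in control mice 1 to 4 and at 3.24, 3.32, 3.24 and 3.08 in BaP mice 1 to 4. BaP mouse 4 was within the control range, and the log2 fold change was 0.22 (SE 0.093, limma adjusted p of 0.558). On the 4 arrays without a label conflict the log2 fold changes of *Ephx1*, *Mafk* and *Gstm5* were 0.28, 0.23 and 0.39, on the other 4 they were 0.64, 0.30 and 0.043, and with the groups by source name they were -0.18, -0.035 and 0.17. An unadjusted exact permutation p of 0.05 or less for the relation to the choroid plexus markers was seen for 9 of the 41 genes by r, where 12.6% of all genes had such a p, and 0 of the 41 passed an adjusted p of 0.05 by r or by rho. *Mgst1*, a microsomal glutathione transferase, and *Abcc4*, an efflux pump, were named after their values were seen. *Mgst1* had an r of 0.935 and a rho of 0.952 (exact permutation p = 0.00104 and 0.00114, adjusted p = 0.0724 and 0.0866). *Abcc4* had an r of 0.853 and a rho of 0.905 (exact permutation p = 0.00211 and 0.00456, adjusted p = 0.10 and 0.162). *Ephx1* had an r of 0.908 and a rho of 0.881 (exact permutation p = 0.00278 and 0.00724, adjusted p = 0.116 and 0.200). *Nqo1* had an r of 0.791 and a rho of 0.810 (exact permutation p = 0.0201 and 0.0218, adjusted p = 0.299 and 0.321). Within groups r was 0.953 for *Mgst1*, 0.830 for *Abcc4*, 0.953 for *Ephx1* and 0.799 for *Nqo1* (exact permutation p = 0.00347, 0.0382, 0.00694 and 0.0503). In the 6 mice left without BaP mouse 1 and control mouse 4, r was 0.892, 0.765, 0.957 and 0.986. With the marker mean as a covariate the log2 fold change of *Ephx1* was 0.26 and that of *Nqo1* 0.28, with unadjusted limma p-values of 0.0197 and 0.0440, where 7.19% of all tested genes passed an unadjusted p of 0.05. *Park7*, which encodes the redox-sensitive protein DJ-1, was the only one of the 41 without overlap of the groups, which 5.37% of all tested genes showed, and was named for that after its values were seen. It stood at 0.42 to 0.47 in control mice and 0.50 to 0.59 in BaP-exposed mice, a log2 fold change of 0.10 (SE 0.070, limma adjusted p of 0.686).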

How the data were processed

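Hippocampal RNA of 4 control and 4 BaP-exposed mice was measured on 2-color Agilent arrays. Per the file headers, Agilent Feature Extraction 11.0.1.1 gave each spot's intensity in both channels, its background and a log10 ratio. The authors also deposited log2 ratios described as LOWESS-normalized. The authors' test was a microarray analysis of variance. Here the spot medians were background-corrected with normexp (offset 50) in limma 3.58.1 in R 4.3.3, after which control spots were dropped, outlier spots were set to missing, and log2 ratios were normalized by loess within each array. Against the authors' log2 ratios, r was 0.998 to 0.999 per array. A probe was tested where Cy5 was well above background on 4 or more of the 8 arrays (32599 of 55681) with lmFit and eBayes and Benjamini-Hochberg adjustment over all of them. Probes were named by RefSeq accession (27235 of 28685 with an accession), and the brightest probe in Cy5 stood for a gene.

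The members, gene lists, motifs and tests were chosen with earlier results of these data known. The rule for genes named with each mouse's value took *Nfe2l2*, *Keap1*, *Hmox1*, *Gclc*, *Gclm*, *Srxn1*, *Txnrd1*, *Slc7a11*, *Osgin1* and any member without overlap, with an unadjusted p of 0.05 or less or a fold change of at least 1.5, and from the pathway list *Nqo1* and genes with an unadjusted p of 0.05 or less. Exact permutation tests were 2-sided, over 70 assignments for the groups and 40320 pairings for the relations, or 576 within groups. The fit was tested on simulated data. The marker lists were erythroid, choroid plexus, meningeal fibroblast, endothelial, microglia, astrocyte, oligodendrocyte, hippocampal neuron and glucocorticoid target. Of 25 alternatives planned and 1 added after the data were seen, the closing section gives the effect. Python 3.11.15 with pandas 2.3.3, numpy 2.4.6, scipy 1.17.1 and matplotlib 3.10.9 was used for motifs, relations and plots. Each array is a separate mouse by its sample number. Same-numbered mice did not deviate together (r of -0.35, 0.032, -0.0055 and -0.0070), so the numbers were not taken as pairs. The number of arrays limits the precision.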

Additional observations from a re-analysis of the deposited data

Results flagged for a closer look

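In 3 of the 88 groups of 4 mice examined, where chance would give 4.4, a single mouse stood apart by Dixon's test at its 95% critical value of 0.829. *Blvrb* in BaP mouse 1 was at -2.29 while the other BaP-exposed mice were at -2.16 to -2.15 (gap over range 0.861). *Sod2* in BaP mouse 3 was at 0.34 against 0.52 to 0.55 (0.852). *Gpx1* in BaP mouse 1 was at -0.94 against -0.79 to -0.76 (0.842). BaP mouse 1, which stood apart for *Blvrb* and *Gpx1*, also had the lowest choroid plexus marker mean of the 8 mice, -1.81.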

How the results depend on the processing

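The number of members past an adjusted p of 0.05 was 0 in every one of the 26 alternatives. Among them, quantile scaling of average intensities after loess left the log2 ratios unchanged, so its result was fixed in advance. The fits of a single slide row, with 2 mice a group, could hardly pass. The median log2 fold change of the members moved by more than the spread between mice only with median centring, to 0.29, where the median of all tested genes was 0.21. Leaving out each mouse, the median ranged from -0.0073 to 0.063. Past an unadjusted p of 0.05 were 17 members with median centring (23.2% of all tested genes), 1 each with median-centred processed signals (7.33%), the Cy5 channel alone (8.22%) and the replicate block (7.93%), and 1 to 6 when each mouse was left out (5.37% to 12.3%). Other pathway genes past it numbered 18 with median centring, 1 with median-centred processed signals, 1 with the groups by source name and 0 to 7 when each mouse was left out. Members without overlap numbered 6 with median centring (10.7% of all tested genes), 0 with the Cy5 channel alone (4.94%), 3 with the groups by source name (2.62%), and 1 to 5 when each mouse was left out (6.73% to 11.8%). On 2 mice a group they numbered 15 in slide row 1 and 20 in row 2, where 39.4% and 38.6% of all tested genes did not overlap. Grouped by source name, *Prdx1* changed sign to -0.13, *Mafk* to -0.035 and *Ephx1* to -0.18. That grouping exchanges the groups of 4 arrays, and 4.48% of all tested genes then passed an unadjusted p of 0.05 in place of 9.47%. The cause of the other shifts was not tested. The replicate block also left *Prdx1*, *Prdx3* and *Gstm5* above an unadjusted p of 0.05 and changed no other count by over 1.5 times. The meningeal fibroblast, endothelial, microglia, astrocyte and oligodendrocyte lists had median log2 fold changes of -0.15, 0.11, 0.061, -0.074 and 0.051. Dim members such as *Gpx7*, with a Cy5 signal from 128, are limited by signal over background.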
